A study of Homo sapiens with 402 samples.

Results

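The 36 genes described here are the enzymes and transporters that turn glucose into lactate, the transcription factor subunit HIF1A with 2 of the prolyl hydroxylases that sense oxygen for it, and 9 further targets of the hypoxia response. They were taken by name as rows of the count files, and all 36 were found among the 34721 gene symbols listed in the series. They were measured by RNA sequencing in MCF10A, a non-tumorigenic human breast epithelial line labelled WT, that had been kept for 48 h with a single chemical out of 21, given at 25, 2.5, 0.25 or 0.025 µM. Every library comes from this 1 line, and none was labelled as grown at low oxygen. Each comparison asks how far a chemical at a given dose moved a gene from the controls of its own plate.

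Of 402 libraries 69 were controls and 333 dosed, spread over 5 plates, and most dosed groups had 4 wells labelled as biological replicates. The metals arsenic, lead, copper, mercury and cadmium shared plate 3153 and its 15 water controls. BPS, BPF, BPA, PPB and MPB were on plate 3206, and thiram, PCB153, PCB187, DCP_25 and DCB_14 on plate 3284, with 15 DMSO controls on each. Plate 3240 had 12 DMSO controls for PFNA, PFDA, PFOS and phenanthrene and 4 water controls for PFOA. DDE, labelled as given in DMSO, had a plate of its own with 8 controls that share its barcode but are labelled as water and as plate 3153. One cadmium library at 25 µM carried the barcode of plate 3284 and was set aside, so that cadmium at 25 µM had 2 libraries. The first part of that barcode is carried by controls at the same place in the numbering of plates 3153, 3206 and 3240. Plate 3284 has no control with the number at that place. Whether the library was given cadmium was not tested.

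Glycolysis splits glucose into pyruvate in the cytosol, and LDHA turns pyruvate into lactate, which SLC16A1 and SLC16A3 carry across the cell membrane. HIF1A is the subunit of a transcription factor that EGLN1 and EGLN3 mark for breakdown when oxygen, iron and 2-oxoglutarate are at hand. When the hydroxylases stall, HIF1A builds up as a protein and its targets rise, among them most genes of glycolysis, PDK1, VEGFA, CA9, BNIP3, ADM and NDRG1. Several of these targets also answer to other stress factors, and HIF1A itself is controlled mostly at the level of its protein, which was not measured.

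The core of the HIF binding motif is ACGTG or GCGTG. RefSeq promoter entries (GRCh38.p14, each gene's start and the bases around it) were found for 31 of the 36 genes, as 58 windows. ACGTG stood on either strand in 23 of these windows, or 39.7%, against 21.4% of all 35116 windows of the same length. GCGTG stood in 37.9% of the members' windows and 36.5% of all. The stretches before the annotated starts of 6 members are printed here, chosen because they moved far in arsenic, thiram or copper: LDHA and CA9, which fell, BNIP3, ADM and P4HA2, which rose, and ALDOC, which fell in arsenic and copper and rose in thiram. Each runs 5′ to 3′ and ends at the base before the start, with ACGTG on either strand in capitals (CACGTG holds it on both). The windows are LDHA chr11:18394313-18394562, plus strand, ALDOC chr17:28576896-28577145, minus strand, CA9 chr9:35673678-35673927, plus strand, BNIP3 chr10:131981924-131982173, minus strand, ADM chr11:10304823-10305072, plus strand, and P4HA2 chr5:132227092-132227341, minus strand.
LDHA: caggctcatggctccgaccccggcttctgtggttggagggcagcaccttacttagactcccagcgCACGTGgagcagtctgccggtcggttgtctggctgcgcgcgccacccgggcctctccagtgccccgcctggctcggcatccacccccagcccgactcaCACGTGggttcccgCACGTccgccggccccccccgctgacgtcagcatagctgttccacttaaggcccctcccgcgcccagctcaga
ALDOC: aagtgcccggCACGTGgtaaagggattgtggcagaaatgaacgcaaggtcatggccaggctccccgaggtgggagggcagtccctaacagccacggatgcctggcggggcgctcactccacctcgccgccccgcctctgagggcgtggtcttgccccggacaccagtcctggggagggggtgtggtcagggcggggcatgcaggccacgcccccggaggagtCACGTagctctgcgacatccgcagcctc
CA9: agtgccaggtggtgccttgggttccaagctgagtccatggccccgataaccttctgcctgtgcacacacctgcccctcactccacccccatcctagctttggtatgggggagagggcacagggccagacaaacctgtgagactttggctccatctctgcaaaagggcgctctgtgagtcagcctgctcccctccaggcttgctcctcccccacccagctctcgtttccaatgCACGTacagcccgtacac
BNIP3: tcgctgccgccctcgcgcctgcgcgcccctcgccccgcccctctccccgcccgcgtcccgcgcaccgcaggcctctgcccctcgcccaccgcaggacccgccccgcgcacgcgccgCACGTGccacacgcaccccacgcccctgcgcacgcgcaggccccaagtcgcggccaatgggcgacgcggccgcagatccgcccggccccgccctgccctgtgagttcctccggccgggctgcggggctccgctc
ADM: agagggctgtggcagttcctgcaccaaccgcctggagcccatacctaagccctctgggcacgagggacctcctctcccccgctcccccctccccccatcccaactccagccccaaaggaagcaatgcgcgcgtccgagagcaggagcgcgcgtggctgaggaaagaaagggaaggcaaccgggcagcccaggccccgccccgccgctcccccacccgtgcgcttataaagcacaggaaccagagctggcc
P4HA2: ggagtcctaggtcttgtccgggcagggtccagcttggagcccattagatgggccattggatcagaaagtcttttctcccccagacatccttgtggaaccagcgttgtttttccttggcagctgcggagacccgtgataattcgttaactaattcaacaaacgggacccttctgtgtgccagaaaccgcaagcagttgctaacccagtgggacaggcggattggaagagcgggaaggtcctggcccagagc
LDHA is shown by the entry that holds the most ACGTG, so its number was raised by that choice, while the others have a single entry each. LDHA held 3 separate stretches in capitals, beginning -185, -87 and -73 bases from the start, and ALDOC held 2, at -240 and -28. CA9 and BNIP3 held 1 each, at -18 and -134. No ACGTG lies in the stretches shown for ADM and P4HA2, which says only that these letters are not in these windows. The other core, GCGTG, was not put in capitals, and on either strand it stands in the stretches shown for ADM, ALDOC and BNIP3. Of the members called higher in arsenic at 25 µM, 5 of 8 with an entry held ACGTG in at least 1 window, and of those called lower 10 of 17 did, beside 4 of 6 of those not called. In thiram these were 2 of 5, 8 of 14 and 9 of 12, and over all members with an entry 19 of 31.

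Totals ran from 1434176 to 25769692 counts per library tested. Levels are given as counts-per-million (CPM) on TMM-scaled totals, and fold changes are log2 values from the model, with a standard error. The 2 cadmium libraries at 25 µM held 1434176 and 1454576 counts, with 39.3% and 46.8% of them mitochondrial, against 7.87% to 11.4% in the controls of that plate. The mitochondrial share was 5.25% to 7.68% in arsenic at 25 µM, below all of those controls. Thiram at 25 µM had 2457043 to 6286429 counts with 4.56% to 10.7% mitochondrial, against 7.50% to 10.2% in its controls. The part of depth and of the mitochondrial share in the results was not tested. On each of the 4 larger plates, controls with low and high numbers differ in depth and expression, so each such plate was also tested in 2 sections: section 1 has dosed replicates 1 and 2 with the first 8 controls, section 2 has dosed replicates 3 and 4 with the remaining controls. The split goes by these numbers alone, and the labels name no such division of a plate. The basal and epithelial markers fixed for the line were all counted in the controls of plates 3153 and 3284, and TP63, a basal factor, was at 0 in both cadmium libraries. The summed level of 8 basal markers was 3216 to 4011 CPM in arsenic at 25 µM, 5910.4 to 11361 in copper and 3966 to 4629 in the water controls, and 3472 to 5042 in thiram against 2859.8 to 4293. In cadmium at 25 µM that sum was 9418 to 10255 CPM, above the water controls. Singly, 2 of the 8 basal markers rose and 6 fell in arsenic, 3 rose and 3 fell in thiram, and 5 rose and 1 fell in copper. In cadmium 3 rose and 2 fell. Among markers of other cells, the 5 luminal hormone receptor genes summed to 49.5 to 57.9 CPM in arsenic against 14.1 to 46.1, with PGR at 0 counts in the controls, and to 46.4 to 68.4 CPM in thiram, where ESR1, PGR and PRLR were at 0, against 4.24 to 40.6. The 4 epithelial markers summed to 729 to 825 CPM in arsenic, 747 to 812 in copper, 756 to 880.4 in lead and 752 to 872 in cadmium against 859 to 1207, and to 489 to 846 in thiram against 694 to 1015. All 4 fell in arsenic and in lead, 3 in copper, and 2 each in cadmium and thiram. Blood marker sums were lower in arsenic than in its controls (2.07 to 4.03 against 20.2 to 78.9 CPM), and fibroblast marker sums overlapped them (12.2 to 46.2 against 21.6 to 146 CPM, with COL3A1 and LUM at 0 in arsenic, and 1 of the 5 tested higher and 1 lower). The part of these markers in the results was not tested.

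At 25 µM, arsenic and thiram moved most of the 36 genes, cadmium, copper and lead moved a few, DDE moved 2 and MPB 1. In arsenic 11 members rose and 18 fell, where 23.2% of all genes tested on that plate rose and 18.2% fell (quasi-likelihood test of edgeR, with p adjusted by Benjamini-Hochberg and called under 0.05). Thiram raised 7 and lowered 15, against 13.7% and 12.2% of all genes. In cadmium 2 rose and 5 fell (5.67% and 5.38% of all genes, or 1378 and 1306, which became 1597 and 971 with RLE scaling). In copper 8 fell (2.21% of all genes), and in lead 3 fell (1.7%). DDE lowered 2 of the 35 members tested (4.22%), SLC2A3 being too low there for the filter, and MPB raised 1 (0.43%). Without replicate 1 no member was called in lead, without replicate 2 cadmium called 4, and the counts of DDE ran from 0 to 4 and those of MPB from 0 to 3 over the replicates left out. DESeq2 called 22 members in cadmium, 5 in lead, 8 in DDE and 4 in MPB. Of all genes it called 2806 higher and 3785 lower in cadmium and 419 and 543 in lead, of 24295 tested. In DDE these were 666 and 946 of 13921, and in MPB 145 and 293 of 22301. The median log2 fold change over the members was -0.26 in arsenic (0.00 over all genes tested), -0.39 in thiram (-0.11), -0.22 in copper (-0.01), -0.14 in lead (-0.02) and -0.24 in cadmium (-1.42, where many low genes had no count in either library). With RLE scaling, which moved the median of all genes by 0.14 in arsenic and 0.17 in cadmium, the members' medians were -0.12 and -0.07, and within section 2 those of arsenic and lead were 0.04 and 0.04. Those medians hide opposite moves: of the 15 glycolytic enzymes from HK1 to PKM, 4 rose and 10 fell in arsenic, while 6 of the 9 HIF targets outside glycolysis rose and 1 fell. In thiram 1 of the 15 enzymes rose and 8 fell, while 4 of the 9 targets rose and 1 fell. Since these are bulk samples, less RNA per cell and fewer cells of a kind cannot be told apart.

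**Figure D1:**
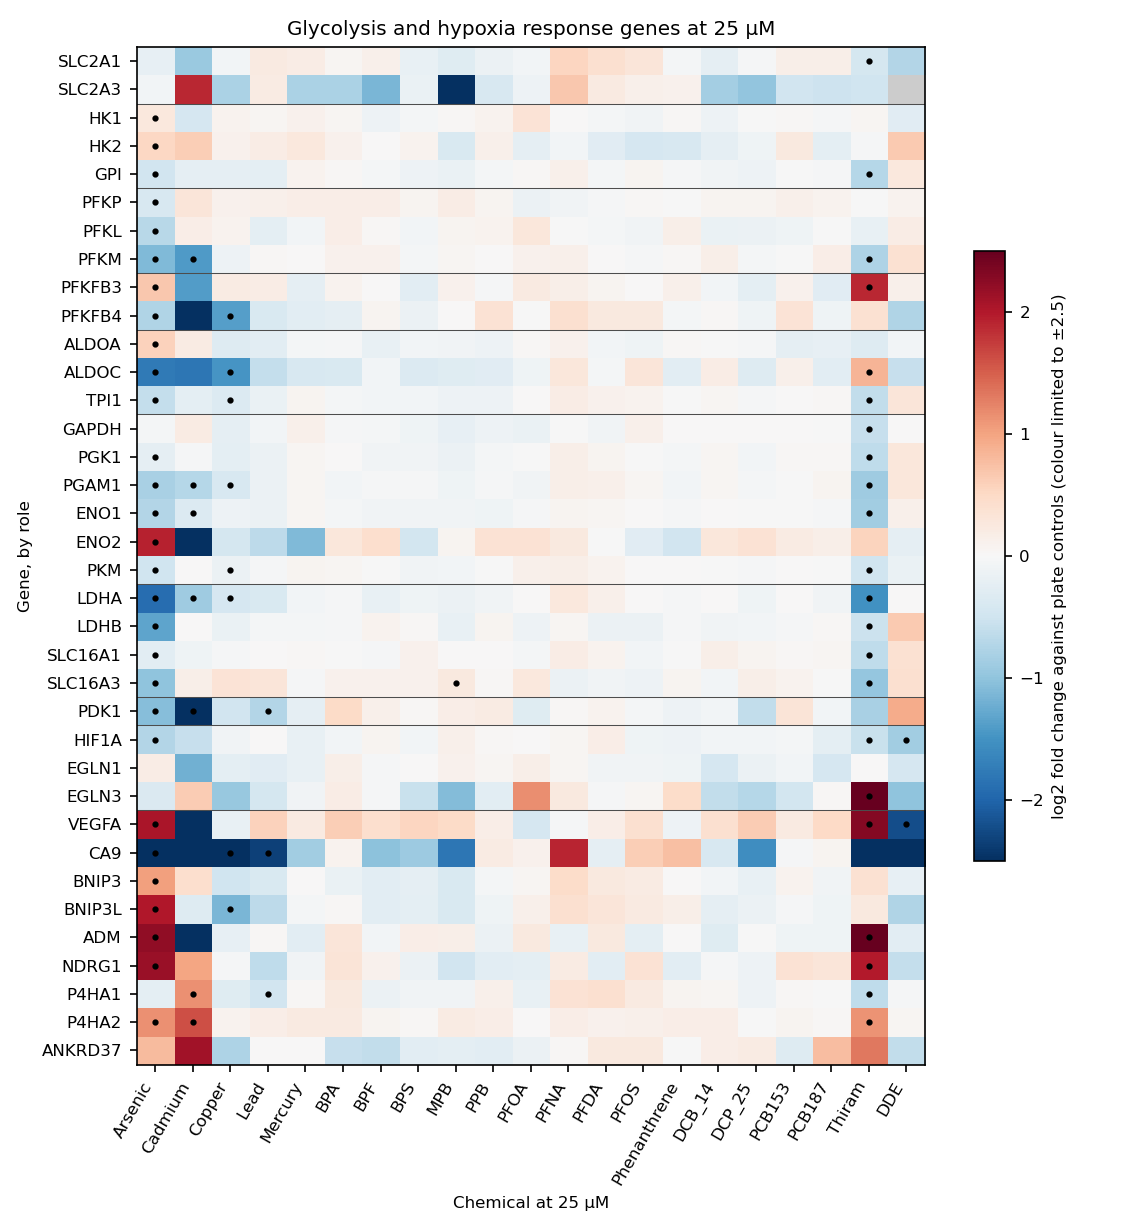
Log2 fold change of each of the 36 genes (rows, grouped by role with thin lines) against the plate controls for 21 chemicals at 25 µM (columns); a black dot marks an adjusted p under 0.05 and grey a gene not tested. Red and blue are mixed in the arsenic and thiram columns, with 29 and 22 dots, and the columns of the other 14 chemicals outside the 7 with calls hold none.

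The glucose transporters moved little. SLC2A1, the main glucose carrier of epithelial cells, read 47.8, 41.1, 23.8 and 32.3 CPM in the 4 thiram libraries against 36.1 to 71.1 (median 50.3) in the controls. Its log2 fold change of -0.45 ± 0.18 stood at an adjusted p of 0.0497, rested on section 2 (-0.17 in section 1 and -1.07 in section 2) and was no longer called without replicate 2, 3 or 4 (-0.52, -0.30 and -0.44) or with RLE scaling (-0.36). In arsenic SLC2A1 read 53.6, 48.1, 49.3 and 50.5 CPM, inside the control range of 40.7 to 93.1 (median 57.1), and in cadmium 21.3 and 40.6 CPM, with an adjusted p of 0.117. Over the 18 chemicals other than arsenic, thiram and cadmium its change ran from -0.73 in DDE to 0.54 in PFNA. SLC2A3, a second glucose carrier that has a near copy in SLC2A14, read 1.26 and 42.01 CPM in the 2 cadmium libraries against 0 to 12.1 (median 4.67) in controls, lay inside the control range in arsenic and thiram, and was called at 25 µM in no chemical. HK1 and HK2, which phosphorylate glucose on entry, both rose in arsenic (0.27 ± 0.08 and 0.51 ± 0.18). HK2 read 50.3, 19.6, 31.2 and 34.3 CPM there against 5.96 to 38.1 (median 24.96), so only 1 library lay above the controls, and without replicate 1 its change was 0.27 and not called. HK2 was not called in thiram (-0.03) or cadmium (0.61), and over the 18 other chemicals it ran from -0.43 in PFOS to 0.65 in DDE. GPI, the isomerase of the second step, fell in arsenic (-0.49 ± 0.09) and thiram (-0.71 ± 0.07, -0.47 in section 1 and -1.08 in section 2), and all 4 libraries of each lay below every control, but the arsenic change was -0.21 and not called in section 2.

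All 3 phosphofructokinases, the committed step of glycolysis, fell in arsenic: the log2 change was -1.09 ± 0.10 for PFKM, -0.70 ± 0.11 for PFKL and -0.41 ± 0.13 for PFKP. PFKM, the muscle form, read 60.7, 64.98, 47.9 and 52.2 CPM in arsenic and 41.4 and 49.01 in cadmium, all below the water controls at 95.6 to 142 (median 121). In thiram PFKM read 72.4, 66.2, 42.2 and 55.9 CPM, also below every control (91.2 to 118, median 102), a change of -0.78 ± 0.12. Thus PFKM fell in 3 chemicals, with the largest change in cadmium (-1.42 ± 0.25), where adding the library that was set aside left -0.36 and no call. PFKL and PFKP did not pass the test in thiram (-0.18 and -0.01). In arsenic PFKL was -0.25 and not called in section 2, and PFKP lost its call without replicate 4 (-0.34) or with RLE scaling (-0.28). The PFKFB enzymes set the level of the activator of phosphofructokinase. PFKFB3, the form that favours making it, read 84.0, 112, 92.2 and 119 CPM in thiram against 20.6 to 36.2 (median 25.2) in controls, with no overlap, and rose by 1.88 ± 0.17. In arsenic PFKFB3 rose by 0.66 ± 0.15 (0.93 in section 1 and 0.53 in section 2, the latter not called). PFKFB4 fell in copper, where it read 2.10, 5.91, 4.97 and 11.9 CPM against 1.06 to 25.2 (median 14.5) in controls, a change of -1.38 ± 0.28 (-2.13 in section 1 and -0.40 in section 2). In arsenic PFKFB4 was called lower (-0.76 ± 0.29) but went the other way in section 2 (-1.2002 in section 1 and 0.11 in section 2), and it lost its call without replicate 2 (-0.50) or 3 (-0.68) or with RLE scaling (-0.61). PFKFB4 had no count in either cadmium library, at least 7.03-fold below the controls by a floor of 3 counts over the group, and did not pass the test there (adjusted p 0.175).

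In the middle of the pathway TPI1, which interconverts the triose phosphates, fell in 3 chemicals. It read 1277, 1126, 1021 and 1156 CPM in arsenic and 1358, 1374, 1354 and 1404 in copper, below all water controls (1420.1 to 1912, median 1779), with changes of -0.60 ± 0.09 and -0.34 ± 0.09. In thiram TPI1 read 1522, 1196, 792 and 835 CPM against 1471 to 1868 (median 1722) and fell by 0.61 ± 0.08 (-0.38 in section 1 and -0.95 in section 2), with 1 library inside the control range. The copper change of TPI1 was -0.45 in section 1 and -0.20 in section 2, not called in section 2 (adjusted p 0.269) or without replicate 4 (-0.32). ALDOC, an aldolase known mainly from brain, went in opposite directions: it fell in arsenic and copper and rose in thiram. Its libraries read 15.6, 13.04, 13.5 and 7.98 CPM in arsenic and 18.7, 11.5, 15.98 and 13.3 in copper against 17.3 to 52.1 (median 41.99) in controls, changes of -1.77 ± 0.33 and -1.47 ± 0.29. In thiram ALDOC read 27.9, 54.8, 37.6 and 49.3 CPM against 10.004 to 33.6 (median 22.6), a change of 0.85 ± 0.24 that was 0.63 and not called without replicate 2, nor in section 2 (1.01). ALDOA rose in arsenic (0.57 ± 0.18), but its symbol overlaps a second annotated transcript unit on the same strand, so that reads could be split between them.

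Of the 6 genes of lower glycolysis 5 fell in thiram, and in arsenic 4 fell and ENO2 rose. ENO1, the main enolase, read 3687, 3458, 3425 and 3697 CPM in arsenic and 4716 and 4699.5 in cadmium, below every water control (5299 to 6385, median 6152), with changes of -0.73 ± 0.06 and -0.33 ± 0.08. In thiram ENO1 read 4066, 3489.6, 2727 and 2897 CPM against 5459 to 6336 (median 6072), a change of -0.86 ± 0.05 (-0.71 in section 1 and -1.08 in section 2). The cadmium change of ENO1 was not called without replicate 1 (-0.33), without replicate 2 (-0.34) or with RLE scaling (-0.17).

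PGAM1, the phosphoglycerate mutase, fell in 4 chemicals. It read 358, 361, 435 and 407 CPM in arsenic, 496 and 330.5 in cadmium and 438, 464, 588 and 568 in copper, all below the water controls at 619.6 to 742 (median 677). The log2 changes of PGAM1 were -0.80 ± 0.08, -0.71 ± 0.13 and -0.40 ± 0.08, the cadmium one -0.46 and not called without replicate 2, and the copper one -0.60 in section 1 and -0.23 in section 2. In thiram PGAM1 read 367, 297, 229.9 and 279 CPM against 481 to 602 (median 545), a change of -0.89 ± 0.07. PKM, the pyruvate kinase of proliferating cells, read 2876, 2691, 2888 and 3089 CPM in arsenic against 3660.1 to 4324 (median 4137) and fell by 0.49 ± 0.05. In thiram PKM read 3387, 3239.6, 2103 and 1986 CPM against 3324 to 4182 (median 3932), with 1 library inside the control range and a change of -0.50 ± 0.07 (-0.31 in section 1 and -0.80 in section 2). In copper it read 3639, 3539, 3715 and 3689.6 CPM, a change of -0.15 ± 0.05 that was lost without any one of the 4 replicates (between -0.16 and -0.13). PGK1 fell in thiram (-0.64 ± 0.06), with its 4 libraries below every control. In arsenic PGK1 was called at -0.22 ± 0.09, but the change was -0.30 in section 1 and 0.02 in section 2 and the call was lost without any one replicate (-0.22 to -0.18) and with RLE scaling (-0.09). GAPDH, often used as a reference gene, fell in thiram to 4886, 4399, 3652 and 3636 CPM against 5307 to 6686 (median 6159), a change of -0.57 ± 0.05 (-0.44 in section 1 and -0.75 in section 2), and was not called in arsenic (-0.04 ± 0.10). ENO2, the neuronal enolase, moved the other way in arsenic, at 10.9, 9.81, 13.3 and 22.8 CPM against 0 to 6.21 (median 3.45), a change of 1.92 ± 0.30 (1.28 in section 1 and 3.90 in section 2). GAPDH, PGAM1 and BNIP3 have many processed pseudogenes in the annotation, so their counts depend on how the authors treated reads that match several places.

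**Figure D2:**
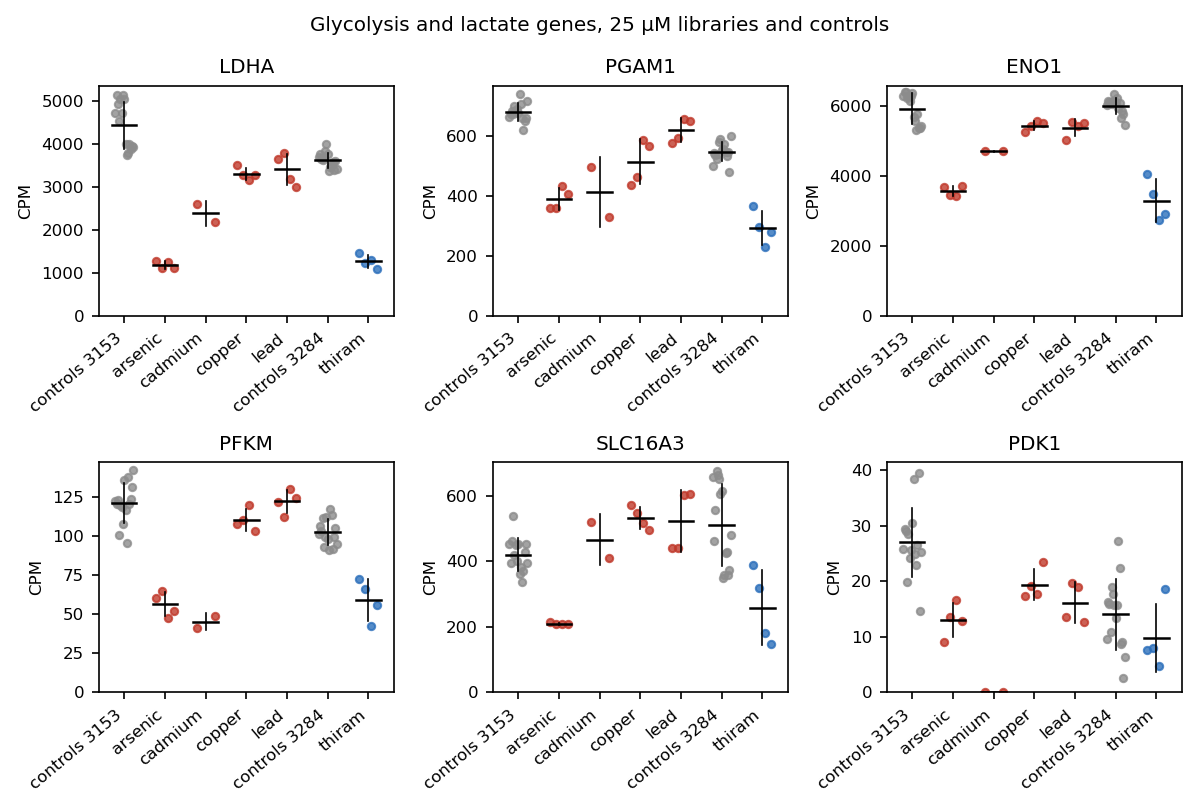
CPM (linear axis from 0) of LDHA, PGAM1, ENO1, PFKM, SLC16A3 and PDK1 in single libraries (points), with the mean (bar) and SD (line), for the 25 µM groups and controls of plate 3153 (grey and red) and of plate 3284 (grey and blue). The arsenic and thiram points of LDHA lie below all points of their controls, and both cadmium points of PDK1 are at 0.

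LDHA, which makes lactate, was called lower in 4 chemicals, as PGAM1 was. It read 1282, 1106, 1254 and 1102 CPM in arsenic, 2595 and 2182 in cadmium and 3500.3, 3284.5, 3168 and 3275 in copper, all below the lowest of 15 water controls (3742 to 5143, median 4527). The log2 changes of LDHA were -1.90 ± 0.13 (-1.999 in section 1 and -1.64 in section 2), -0.89 ± 0.18 and -0.42 ± 0.12 (-0.53 in section 1 and -0.27 in section 2), with adjusted p of 5.6e-23, 8.1e-05 and 0.0192. Its copper change lost its call without replicate 2 (-0.43) or 4 (-0.39). In thiram LDHA read 1453, 1235, 1308 and 1083 CPM against 3359 to 3985 (median 3622), a change of -1.51 ± 0.07 (-1.49 in section 1 and -1.55 in section 2). Over the 18 other chemicals LDHA ran from -0.42 in copper to 0.25 in PFNA. LDHB, the form that favours the way back to pyruvate, fell in arsenic (-1.33 ± 0.12) and in thiram (-0.53 ± 0.15), the latter not called without replicate 3 (-0.46) or in either section alone. SLC16A3, the lactate exporter of glycolytic cells, read 214, 208, 208 and 208 CPM in arsenic against 336 to 539 (median 419) and fell by 1.01 ± 0.13. In thiram it read 389, 319, 180.4 and 148 CPM against 349.6 to 676 (median 481), with the first library inside the control range, and fell by 0.96 ± 0.15. SLC16A3 was also the single call in MPB, at 729.9, 617, 646 and 723 CPM against 453 to 679 (median 558), a change of 0.24 ± 0.07 that was lost without replicate 1, 3 or 4 (0.21, 0.27 and 0.21) and in section 2. SLC16A1, which carries lactate both ways, fell in thiram (-0.63 ± 0.14). It was called in arsenic at -0.27 ± 0.10, but not in either section alone, with RLE scaling (-0.14) or without replicate 1, 3 or 4 (-0.19, -0.27 and -0.19).

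PDK1, the kinase that shuts pyruvate dehydrogenase, fell in 3 chemicals of the water plate. It read 9.002, 13.5, 16.5 and 12.8 CPM in arsenic and 13.5, 19.6, 18.9 and 12.6 in lead against 14.6 to 39.4 (median 25.8), so both groups reached below the controls while overlapping them. The changes of PDK1 were -1.07 ± 0.20 (-1.22 in section 1 and -0.88 in section 2) and -0.73 ± 0.17 (-0.71 in section 1 and -0.80 in section 2), the second -0.65 and not called without replicate 1. In cadmium PDK1 had no count in either library, at least 13.6-fold below the control mean of 26.97 ± 6.26 CPM (SD, n = 15) by the floor of 3 counts. That call was lost when either cadmium library was left out, and with the set-aside library added the change was -1.28 and not called. PDK1 was not called in thiram (-0.80), and across the 18 chemicals other than arsenic, thiram and cadmium it ran from -0.73 in lead to 0.92 in DDE.

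Of the oxygen sensing genes, HIF1A fell in arsenic, thiram and DDE as a transcript. It read 208, 169, 180.0 and 219 CPM in arsenic, below all controls at 257 to 389 (median 317), a change of -0.73 ± 0.11 (-0.82 in section 1 and -0.44 in section 2). In thiram HIF1A read 199, 264, 214 and 153 CPM against 186 to 365 (median 311), a change of -0.55 ± 0.12 with 3 of 4 libraries inside the control range. In DDE it read 332, 219, 210.1 and 205 CPM against 333 to 680.3 (median 411) in 8 controls, a change of -0.87 ± 0.26 at an adjusted p of 0.042, not called without replicate 2 (-0.83) or 3 (-0.81). In cadmium HIF1A read 237 and 193 CPM, below every control, without passing the test (adjusted p 0.0619). Over the 18 other chemicals HIF1A ran from -0.87 in DDE to 0.16 in PFDA. EGLN3, a hydroxylase gene that is itself a HIF target, rose in thiram, at 12.7, 37.1, 42.7 and 38.5 CPM against 0 to 12.02 (median 2.73), a change of 3.74 ± 0.38 (3.499 in section 1 and 3.56 in section 2). It was not called in arsenic, where it read 9.54, 4.55, 6.89 and 1.44 CPM against 0 to 11.04 (median 6.09). EGLN1, the main HIF hydroxylase, was called at 25 µM in no chemical when all libraries were fitted without further terms, with changes of 0.19 ± 0.15 in arsenic, 0.00 ± 0.22 in thiram and -1.21 ± 0.61 in cadmium (adjusted p 0.25). In DDE it was -0.41 ± 0.20, and it was called lower there with a term for the position on the plate (-0.44) or without the numbers at its ends (-0.53).

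Among the HIF targets outside glycolysis ADM, NDRG1, VEGFA and P4HA2 rose in both arsenic and thiram. ADM, the vasodilator peptide adrenomedullin, read 179, 167, 97.3 and 126 CPM in arsenic against 9.17 to 43.1 (median 32.6), a change of 2.22 ± 0.15 (2.30 in section 1 and 2.94 in section 2). In thiram ADM read 269.6, 228, 361 and 351 CPM against 5.10 to 28.03 (median 22.4), a change of 3.69 ± 0.15 (3.31 in section 1 and 4.45 in section 2). In each case the lowest dosed library was above the highest control. NDRG1, a stress gene, read 154, 166, 217 and 149 CPM in arsenic against 14.2 to 52.7 (median 37.3), a change of 2.15 ± 0.25 (1.90 in section 1 and 2.92 in section 2). Thiram libraries read 57.7, 66.4, 93.4 and 64.99 CPM for NDRG1 against 2.73 to 24.6 (median 16.9), a change of 1.98 ± 0.23, again with no overlap.

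VEGFA, the growth factor for blood vessels, read 31.3, 30.2, 19.6 and 49.8 CPM in arsenic against 2.84 to 13.7 (median 7.03), a change of 2.03 ± 0.22, and 30.8, 34.8, 37.6 and 43.9 CPM in thiram against 2.72 to 17.6 (median 7.24), a change of 2.30 ± 0.26. All 8 of these libraries lay above their controls. In DDE VEGFA went down instead, to 17.8, 8.95, 7.08 and 3.19 CPM against 9.58 to 119 (median 26.9), a change of -2.22 ± 0.63 (adjusted p 0.0381), and this call was lost without replicate 2 (-2.19), 3 (-2.12) or 4 (-1.96). VEGFA had no count in the 2 cadmium libraries (adjusted p 0.377). Over the 18 other chemicals, DDE among them, it ran from -2.22 in DDE to 0.63 in DCP_25.

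P4HA2, a catalytic subunit of the collagen prolyl hydroxylase, was called higher in 3 chemicals and lower in none. It read 175, 182, 146 and 195 CPM in arsenic and 293 and 185 in cadmium against 66.0 to 107 (median 78.8), and 227, 245, 194 and 153 in thiram against 60.3 to 114 (median 93.4). All dosed libraries lay above their controls, with changes of 1.15 ± 0.12, 1.61 ± 0.23 and 1.13 ± 0.10. P4HA1, a second catalytic subunit, did not follow: it rose in cadmium, at 227 and 139 CPM against 61.7 to 93.9 (median 83.1), a change of 1.14 ± 0.28, and fell in thiram, at 44.5, 47.8, 46.3 and 34.4 CPM against 54.4 to 83.4 (median 70.9), a change of -0.63 ± 0.19 (-0.62 in section 1 and -0.67 in section 2, the latter not called). In lead P4HA1 read 52.2, 56.3, 61.9 and 70.1 CPM, a change of -0.49 ± 0.14 that was -0.71 in section 1 and -0.23 in section 2 and was lost without replicate 1, 2 or 4 (-0.43, -0.47 and -0.55). The cadmium rise of P4HA1 was 0.73 and not called without replicate 1.

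**Figure D3:**
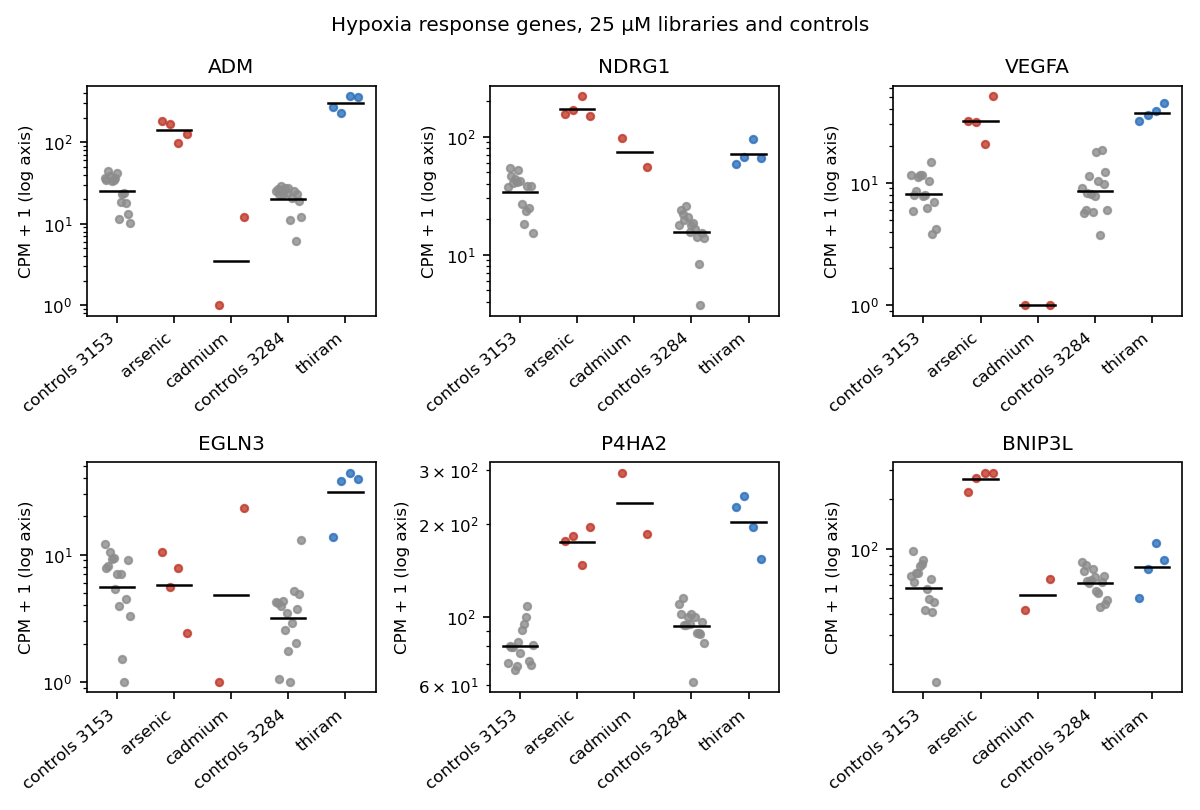
CPM + 1 (log axis) of ADM, NDRG1, VEGFA, EGLN3, P4HA2 and BNIP3L in single libraries (points) with the geometric mean (bar), for controls, arsenic and cadmium of plate 3153 and controls and thiram of plate 3284, all dosed groups at 25 µM. Arsenic and thiram points stand above their controls for ADM, NDRG1, VEGFA and P4HA2, EGLN3 does so in thiram only and BNIP3L in arsenic only.

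The mitophagy receptors BNIP3 and BNIP3L rose in arsenic and were not called in thiram. BNIP3L read 218, 265, 285 and 285 CPM in arsenic against 14.7 to 95.8 (median 64.1), a change of 2.005 ± 0.25 (1.71 in section 1 and 2.73 in section 2). In thiram it read 49.3, 74.1, 107 and 84.9 CPM against 43.3 to 81.7 (median 62.5), a change of 0.24 ± 0.22 (-0.20 in section 1 and 0.88 in section 2). In copper BNIP3L fell to 38.7, 33.2, 23.2 and 22.6 CPM (-1.14 ± 0.31), a call that was lost without replicate 3 (-1.04). BNIP3 read 283, 295, 259.8 and 284 CPM in arsenic, above every control (81.6 to 179, median 139.7), a change of 1.02 ± 0.17. In thiram BNIP3 read 114, 134, 148 and 119 CPM against 52.3 to 127 (median 98.8), at 0.39 ± 0.17 (adjusted p 0.0755), and was called within section 2 (0.90) and with the section as a term (0.43). Whether these 2 genes differ between arsenic and thiram was not tested, since the chemicals were on different plates.

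CA9, the cell surface carbonic anhydrase that is a standard marker of hypoxia, fell in arsenic, copper and lead. It read 0, 1.32, 1.56 and 0.878 CPM in arsenic against 1.26 to 28.3 (median 17.2) in the water controls, 0.0931, 0, 0.127 and 0 in copper and 3.21, 3.11, 3.45 and 4.62 in lead. The log2 changes of CA9 were -4.30 ± 0.997, -7.99 ± 1.35 and -2.33 ± 0.61, and only the copper libraries, with 2, 0, 2 and 0 counts, lay wholly below the controls. In section 2, where the controls themselves are lower, the arsenic change of CA9 was -1.95 (adjusted p 0.056) and the lead change -0.27 (adjusted p 0.929), while copper kept -5.90 (adjusted p 0.00409). Lead also lost the call without replicate 1 (-2.29). Thiram libraries held 0, 1, 0 and 0 counts of CA9 with controls at 0 to 7.39 (median 1.65) CPM, and the difference did not pass the test (adjusted p 0.119). In cadmium the 2 libraries held 0 and 1 count of CA9. In the 18 other chemicals CA9 ran from -7.99 in copper to 1.91 in PFNA. ANKRD37, a small HIF target, was called in no chemical, though its fitted change was 0.80 ± 0.35 in arsenic (adjusted p 0.0589) and 1.32 ± 0.53 in thiram (adjusted p 0.0519).

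Arsenic and thiram were on different plates with no shared controls, and 18 members were called in both. These were 62.1% of the 29 called in arsenic and 81.8% of the 22 called in thiram. Of all 20589 genes tested on both plates 4143 were called in both, or 45.8% of the 9045 called in arsenic and 75.5% of the 5486 called in thiram. Of the 18, 5 rose in both, 12 fell in both, and ALDOC alone fell in arsenic and rose in thiram. Thus 94.4% of these members went the same way, near the 94.5% (3915) of all 4143 genes called in both. The members that fell in both were GPI, PFKM, TPI1, PGK1, PGAM1, ENO1, PKM, LDHA, LDHB, SLC16A1, SLC16A3 and HIF1A.

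Within plate 3153 the groups could be compared directly. Arsenic exceeded cadmium for 5 members and lay below it for 8 (4.24% and 4.32% of all genes). The higher ones included ADM (4.75 ± 0.80, with 0 and 8 counts in the 2 cadmium libraries, where its own change of -2.53 ± 1.05 was not called) and BNIP3L (2.33 ± 0.76), the lower ones P4HA1 (-1.39 ± 0.31), LDHB (-1.34 ± 0.29), SLC16A3 (-1.16 ± 0.22) and LDHA (-1.01 ± 0.18). Without replicate 1 the differences of BNIP3L, P4HA1 and LDHB lost their call, at 2.11, -0.94 and -0.95, and that of BNIP3L did so without replicate 2 as well (2.67). Without replicate 1 or 2 the 13 became 7. Cadmium exceeded copper for P4HA2 (1.52 ± 0.25) and P4HA1 (1.43 ± 0.30) and lay below it for PFKM (-1.29 ± 0.26) and PDK1 (9.29% of all genes). The differences of P4HA1 and PFKM were not called without replicate 1 (1.10 and -1.17), nor that of PDK1 without replicate 1, 2 or 3. No member differed between copper and lead by edgeR, where 0.827% of all genes did. At an unadjusted p under 0.05 were 7 members and 1917 of all 24295 genes, and DESeq2 called 1 member. With the replicate number as a block, CA9 (-5.75), ALDOC (-0.88) and PFKFB4 (-1.01) were lower in copper than in lead (2.63% of all genes).

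**Figure D4:**
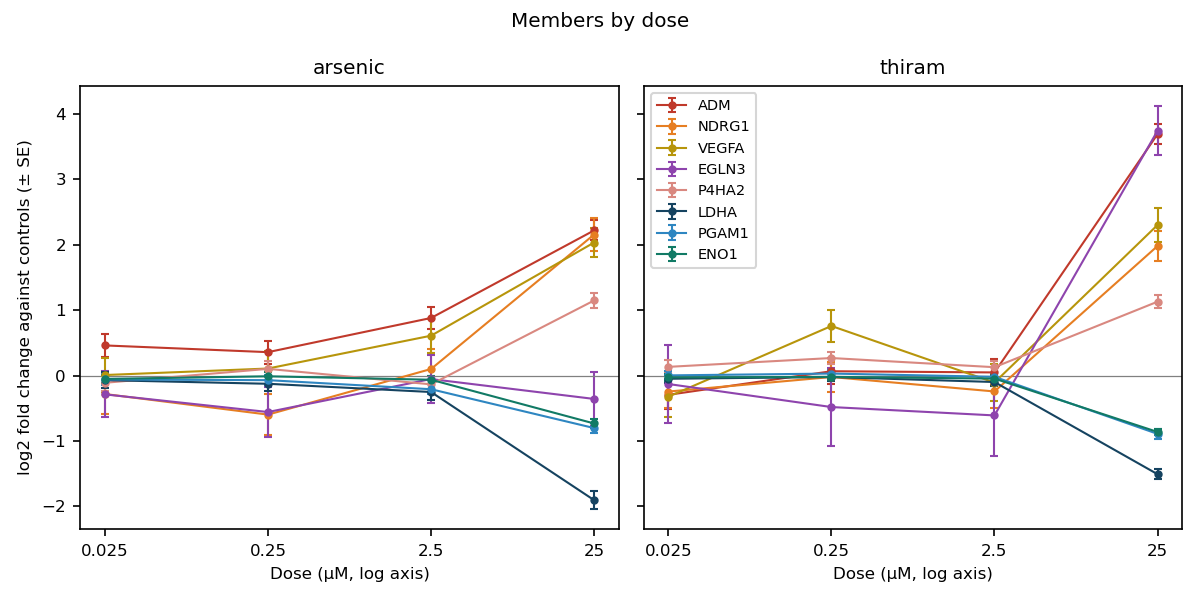
Log2 fold change against controls (points, with the standard error as bars) of ADM, NDRG1, VEGFA, EGLN3, P4HA2, LDHA, PGAM1 and ENO1 at 0.025, 0.25, 2.5 and 25 µM (log axis) of arsenic and thiram. Among these genes only ADM at 2.5 µM of arsenic was called below 25 µM, and at 25 µM ADM, NDRG1, VEGFA and P4HA2 stand above 0 and LDHA, PGAM1 and ENO1 below it in both panels.

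Below 25 µM few members moved, as did few genes at all: over the 21 chemicals 0.412%, 0.0748% and 0.0104% of the tests of all genes were called at 2.5, 0.25 and 0.025 µM. At 2.5 µM arsenic raised ADM and SLC2A1 and lowered PFKM (1.96% of all genes called), copper raised SLC2A1 and lowered PFKFB4 and CA9 (3%), and lead lowered CA9 (0.613%). These 7 calls became 3 without replicate 3 and 12 without replicate 4. ADM read 58.8, 50.2, 37.5 and 75.7 CPM in arsenic at 2.5 µM against 9.17 to 43.1 (median 32.6), a change of 0.88 ± 0.17 (0.60 in section 1 and 1.95 in section 2) that was 0.71 and not called without replicate 4. SLC2A1 read 90.2, 84.6, 65.7 and 81.7 CPM there (0.49 ± 0.11) and 79.6, 67.5, 74.4 and 74.9 in copper (0.36 ± 0.10) against 40.7 to 93.1 (median 57.1), so the groups overlapped, and the copper call was lost without any one replicate. In arsenic the SLC2A1 rise was thus seen at 2.5 µM and not at 25 µM, where its change was -0.20. CA9 read 3.99, 4.58, 0.192 and 0.715 CPM in copper at 2.5 µM (-2.89 ± 0.64) and 5.01, 4.34, 1.81 and 1.502 in lead (-2.45 ± 0.64), the lead call being lost without any one replicate. PFKFB4 in copper (-0.88 ± 0.25) and PFKM in arsenic (-0.31 ± 0.09) each lost their call without replicate 2, 3 or 4. At 0.25 and at 0.025 µM no member of any chemical was called by edgeR, with 82 and 74 of 755 tests at an unadjusted p under 0.05, and DESeq2 called 5 and 2. At these doses edgeR called 1 to 5 and 0 to 3 members with a replicate left out, and 7 and 1 with a term for the section.

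A linear trend over the 4 doses, fitted without the controls, was called for 24 members in arsenic, 9 up and 15 down (14.2% and 15.6% of all genes), and for 20 in thiram, 7 up and 13 down (9.24% and 9.26%). In cadmium 2 rose and 5 fell with dose (4.18% and 4.78%), and without replicate 1 or 2 the 7 became 4 or 3. The fitted slope per 10-fold step of dose was 0.80 ± 0.11 in arsenic and 0.64 ± 0.09 in thiram for NDRG1. For LDHA it was -0.56 ± 0.05 and -0.44 ± 0.03. For ADM the slope was 0.58 ± 0.06 in arsenic and 1.19 ± 0.07 in thiram. These slopes average over unequal steps. From the lowest to the highest dose, mean ADM was 42.1, 39.2, 55.6 and 142 CPM in arsenic. In thiram it was 19.2, 24.2, 24.4 and 303 CPM. All 24 trend calls in arsenic and 19 of the 20 in thiram were also called at 25 µM. In copper CA9 (-2.33 ± 0.49) and PGAM1 (-0.11 ± 0.03) fell with dose (0.671% of all genes), and both lost the call without replicate 1 (-2.28 and -0.08), PGAM1 also without replicate 2 or 4. In lead no member had a trend by edgeR or DESeq2 (0.868%), with 4 members at an unadjusted p under 0.05, as 2279 of all 24295 genes were. Same-numbered dosed libraries of copper and of lead vary together, and whether they share more than the section of the plate was not tested. With the number as a block 8 members of copper fell with dose (CA9, ALDOC, PFKFB4, BNIP3L, PGAM1, TPI1, LDHA and GAPDH, against 4.97% of all genes) and 3 of lead (CA9, PDK1 and LDHA, against 3.55%).

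The 2 sections of a plate gave different counts in copper and lead. Within section 1 copper called 18 members, 17 of them lower, and within section 2 it called 4, all lower, against 11% and 1.8% of all genes. For lead these counts were 17 (16 lower) and 4 (2 lower), against 6.65% and 3.51%. Arsenic called 30 members in section 1 and 22 in section 2 (38.1% and 32.6%), and thiram 20 and 21 (16% and 15.4%). A term for the section in the model gave 30 members in arsenic, 22 in thiram, 13 in copper and 9 in lead, against 42.3%, 26.2%, 7.57% and 6.52% of all genes. The members themselves differ between controls of the 2 sections: on plate 3153, 18 of 36 were lower and 1 higher in the last controls (20.3% of all genes), on plate 3206 7 were lower (2.98%), on plate 3284 6 lower and 1 higher (6.38%), and on plate 3240 none (0.546%). BNIP3 differed between the last and the first controls by -0.68, -0.40 and -0.58 on plates 3153, 3206 and 3284. On plate 3153 CA9 (-2.18), ENO2 (-1.67), ADM (-1.18), NDRG1 (-0.77) and BNIP3L (-0.70) were lower as well. The first 8 controls of that plate had a median of 20899590 counts and the last 7 a median of 3170652, and the part of depth in these differences was not tested.

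**Figure D5:**
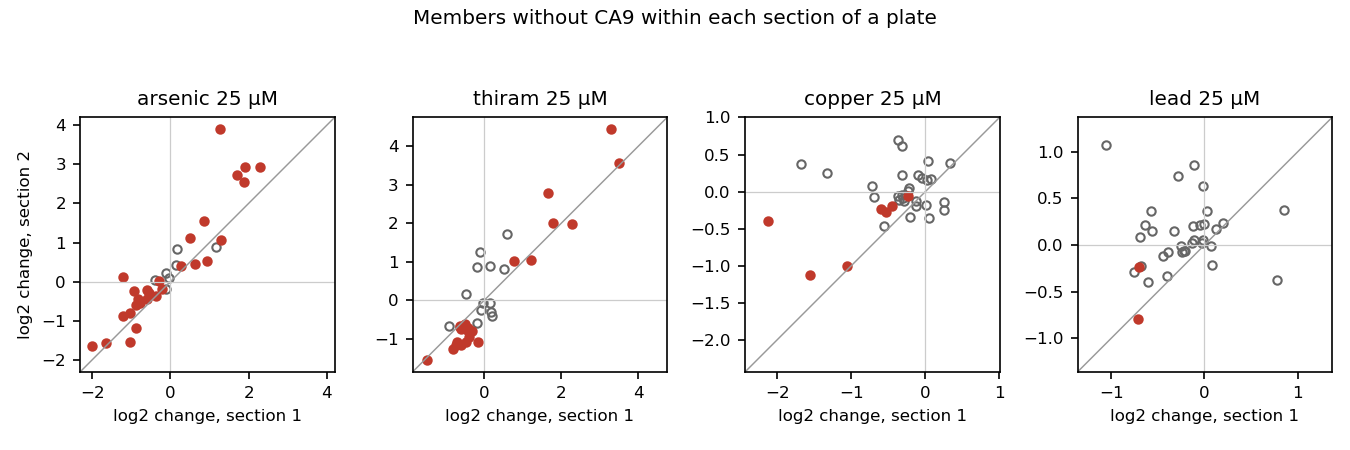
Log2 fold change of the members other than CA9 within section 1 (x axis) and within section 2 (y axis) of the plate, for arsenic, thiram, copper and lead at 25 µM; filled red points were called over all libraries, open points were not, and the grey line marks equal values. Points of arsenic and thiram run along the line, while in copper and lead many points are negative in section 1 and near or above 0 in section 2.

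Controls in the 2 solvents differed for some members too. On plate 3240 the 4 water controls exceeded the 12 DMSO controls for 8 members (2.13% of all genes): CA9 (2.05), NDRG1 (0.60), ALDOC (0.55), BNIP3 (0.52), P4HA1 (0.40), PGAM1 (0.34), PGK1 (0.21) and TPI1 (0.21). Leaving out 1 of the 4 water controls gave 2, 3, 4 or 7 members. The water controls have the numbers 39, 40, 47 and 48, the last of each section, so solvent and control number cannot be told apart. The DDE comparison rests on controls labelled with the other solvent, and DMSO and DDE cannot be told apart there. A term for the position of a number on that plate gave 17 members called in DDE in place of 2, 10 higher and 7 lower (25% of all genes), with HIF1A at -0.91 and VEGFA at -2.28. Leaving out the numbers at the ends gave 15 (19.2%), with HIF1A at -0.998 and VEGFA at -1.93.

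In the other 14 chemicals no member was called at 25 µM by edgeR or DESeq2, while 50 of 504 tests had an unadjusted p under 0.05. Of the tests of all genes in them 0.0186% were called. PFNA had the most members at an unadjusted p under 0.05, with 12, and among these 14 chemicals also the most genes at such a p, 2204 of 19468. CA9 was above every DMSO control in PFNA, at 6.62, 10.1, 4.55 and 4.44 CPM against 0 to 3.79 (median 1.18), but at an adjusted p of 0.0817 (1.91 ± 0.45). With a term for the section, 7 members were called over these 14 chemicals, LDHA lower in BPF (-0.17), P4HA1 higher in PFDA (0.41) and 5 higher in PFNA: CA9 (1.96), SLC2A1 (0.55), BNIP3 (0.47), BNIP3L (0.40) and LDHA (0.25), where 0.606% of all genes were called.

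Related compounds were compared in 7 pairs on the same plate and in the same solvent at each of the 4 doses: BPA, BPF and BPS with each other, MPB with PPB, PFNA with PFDA and with PFOS, and PCB153 with PCB187. BPA, BPF and BPS are bisphenols that differ in the bridge between their phenol rings, PFNA and PFDA are perfluorinated acids that differ in chain length, and PFOS carries a sulfonate where PFNA carries a carboxylate. Over 1008 tests, with p-values adjusted over genes and pairs together, no member differed, where 0.000669% of the tests of all genes were called (lowest adjusted p 0.638, with 62 at an unadjusted p under 0.05). At 25 µM the approximate 95% interval of the LDHA difference (log2, unadjusted) was 0.02 to 0.27 for BPA against BPF, -0.04 to 0.20 for BPA against BPS, -0.19 to 0.06 for BPF against BPS and -0.18 to 0.06 for MPB against PPB. It was -0.07 to 0.31 for PFNA against PFDA, 0.04 to 0.43 for PFNA against PFOS and -0.06 to 0.26 for PCB153 against PCB187. For SLC2A1 the widest of the 7 intervals was -0.14 to 0.63, in PFNA against PFOS, and for BNIP3 -0.17 to 0.52, in PCB153 against PCB187. None of these shows that the compounds act alike. PFOA was in water, so its values stand beside those of PFNA without a comparison: LDHA changed by 0.01 ± 0.10 in PFOA and 0.25 ± 0.08 in PFNA.

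Other genes of these pathways were counted from lists of HIF regulators, HIF targets and sugar metabolism, beside 23.2% of all genes higher and 18.2% lower in arsenic, 13.7% and 12.2% in thiram, and 5.67% and 5.38% in cadmium. Of 12 other regulators of HIF, 2 rose and 1 fell in arsenic, with HIF1AN, the asparagine hydroxylase that restrains HIF, at 0.66 ± 0.10 and ELOC, part of the ubiquitin ligase that degrades it, at 0.39 ± 0.10. In thiram 2 of the 11 tested rose and 3 fell, led by CITED2, an inhibitor that competes for the coactivator of HIF (1.55 ± 0.18, 105 to 154 CPM against 28.97 to 54.5 in controls), and ELOC (0.90 ± 0.12). Cadmium raised ELOB (1.67 ± 0.33) and lowered EPAS1, the second oxygen-regulated subunit (-1.63 ± 0.28). Of 22 further HIF targets, 8 rose and 8 fell in arsenic, 4 rose and 9 fell in thiram, and 2 rose and 5 fell in cadmium. The 2 largest changes were RORA (4.67 ± 0.42) and CA12, a second surface carbonic anhydrase (-3.16 ± 0.24), in arsenic, and the same genes in thiram (2.46 ± 0.69 and -2.13 ± 0.25). CA12 read 8.70 to 15.6 CPM against 64.5 to 137 in the controls of arsenic, and 6.62 to 23.8 CPM against 45.6 to 83.7 in those of thiram. In cadmium they were INSIG2 (-2.72 ± 0.84) and DDIT4 (-2.48 ± 0.31). Of 25 other genes of sugar and pyruvate use, 6 of the 23 tested rose and 10 fell in arsenic, 2 of 22 rose and 10 fell in thiram, and 3 of 23 fell in cadmium. In thiram the largest were G6PC3 (-1.37 ± 0.15) and BPGM (1.27 ± 0.20), and in cadmium PCK2, with no count in either library against 20.2 to 44.5 CPM in controls, and PGM1 (-1.55 ± 0.25). In arsenic the largest fitted changes were those of PKLR and FBP1, which rest on counts near 0: PKLR was at 0 in all 15 controls and had all of its 21 counts in 1 of 4 arsenic libraries, and 39 of the 41 counts of FBP1 were in 1 library. PCK2, the mitochondrial enzyme that turns oxaloacetate into phosphoenolpyruvate, went the other way in arsenic from its absence in cadmium, at 112 to 178 CPM against 20.2 to 44.5 in controls (2.38 ± 0.11).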

How the data were processed

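RNA sequencing libraries were made with the plexWell plate method from lysates of MCF10A wells, per the labels' protocols. The values used are whole-number counts per gene symbol, 1 file per library, as deposited by the authors. The submitters' processing notes name FastQC, MultiQC, STAR, featureCounts and GRCh38; versions, strand handling, the annotation and the treatment of reads that match several places are not stated in the sources at hand.

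Counts were tested with edgeR 4.0.16 (R 4.3.3): TMM scaling, filterByExpr (minimum count 10, minimum total 15), 1 mean per group in 1 fit per plate, quasi-likelihood F-test, and Benjamini-Hochberg adjustment over all genes tested, with a call at an adjusted p under 0.05. The standard error is the log2 change divided by the square root of F. A dose trend weights the 4 doses, without controls. The 5 plates were told apart by barcode; the cadmium library with another plate's barcode was left out. The labels call the wells biological replicates but name no separate cultures, so p-values measure the spread between wells.

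The 36 members, the gene lists, the chemicals described singly and the tests were chosen with earlier results of these data known. Values by library are given for the 3 highest and 3 lowest changes among called members in arsenic, thiram, cadmium, copper, lead, DDE and MPB at 25 µM and for members called in at least 3 chemicals; others were named after their values were seen.

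Dosed libraries share replicate numbers within a plate. The deviations of same-numbered libraries from their group means correlated above 0.1 in every pair of doses for copper (lowest 0.18), lead (0.40), mercury (0.36) and PFOA (0.26), and between copper and lead (0.29), PFNA and PFDA, and PCB153 and PCB187 at 25 µM, so the numbers were taken to pair those libraries. The pairing comes from the data, not from the labels. Libraries of 1 section with different numbers were not compared, so a difference between sections could give the same correlations. Alternatives were RLE scaling, no filter on low counts, DESeq2 1.42.0, the section of the plate (by replicate and control number, not a labelled division) as a term or alone, the dosed group and its controls alone, each replicate left out, the replicate block, the library set aside, and the end numbers of the DDE plate. The edgeR steps were tested on simulated counts.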

Additional observations from a re-analysis of the deposited data

Results flagged for a closer look

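Within 4 arsenic libraries at 25 µM, 1 library stood far from the others for ALDOA, at 98.8 CPM with the others between 80.4 and 81.9, and for SLC16A3, at 214.44 CPM with the others between 207.66 and 208.35. In DDE at 25 µM 1 library held HIF1A at 332 CPM with the others between 205 and 219. These were 3 of 65 groups looked at, and chance flags about 1 in 20.

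A test of the difference between the sections of a plate (section 2 minus section 1 of the change against controls, edgeR quasi-likelihood test) passed for 15 pairs of member and chemical at 25 µM. It passed for 0.700% of all genes in arsenic, 1.08% in thiram, 0.354% in lead, 0.326% in DCB_14, 0.170% in BPA and 0.312% in MPB. In arsenic ENO2 rose more in section 2, by 2.57 on the log2 scale (adjusted p 0.0455), BNIP3L by 0.97 (0.00505) and NDRG1 by 0.97 (0.0277). In thiram ADM differed by 1.13 (0.0264) and BNIP3L by 1.06 (0.0487), both higher in section 2. Glycolytic enzymes were lower in section 2 of thiram, with differences of -0.63 for GPI (0.00119), -0.59 for TPI1 (1.0e-04), -0.51 for PKM (3.9e-05), -0.38 for ENO1 (0.00264) and -0.34 for GAPDH (0.0148). In lead PFKL (0.72, adjusted p 0.029) and SLC16A3 (0.66, 0.0141) were higher in section 2 than in section 1. Single members differed in DCB_14 (SLC16A3, 0.66, adjusted p 6.8e-04), BPA (GAPDH, -0.30, 0.0271) and MPB (PFKFB3, -1.18, 0.025).

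The cadmium library at 25 µM that was set aside for its barcode held 1284517 counts, 9.99% of them mitochondrial. That share was 7.50% to 10.2% in the controls of plate 3284 and 39.3% and 46.8% in the cadmium libraries kept. In it 4 members lay above all 15 water controls of plate 3153 and 11 below them.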

How the results depend on the processing

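The 36 genes gave 190 called values, of which 108 kept their direction and their call in every setting tried. Among the 1894 values under alternatives 249 kept the direction and lost the call, and 2 changed sign, both in arsenic within section 2, PFKFB4 at 0.11 and PGK1 at 0.0199. At 25 µM the calls kept in every setting were 20 of 29 in arsenic, 18 of 22 in thiram, 2 of 7 in cadmium, 2 of 8 in copper and 0 in lead, DDE and MPB. The counts that follow stand without the share of all genes, which also changes with the setting, so they describe the settings and not the members. The number of members called, as given in the report, was 29 in arsenic, 22 in thiram, 7 in cadmium, 8 in copper, 3 in lead, 2 in DDE, 1 in MPB, 0 in the other 14 chemicals at 25 µM, 7 in all chemicals at 2.5 µM, 0 in all at 0.25 µM, 0 in all at 0.025 µM, 24 in the arsenic trend, 20 in the thiram trend, 7 in the cadmium trend, 2 in the copper trend, 0 in the lead trend, 13 in arsenic minus cadmium, 4 in cadmium minus copper, 0 in copper minus lead, 0 in related compounds and 8 in water minus DMSO. With DESeq2 the number of members called was 22 in cadmium, 5 in lead, 8 in DDE, 4 in MPB, 5 in all at 0.25 µM, 2 in all at 0.025 µM, 19 in the cadmium trend, 20 in arsenic minus cadmium, 16 in cadmium minus copper, 1 in copper minus lead and 13 in water minus DMSO. With the section as a term the number of members called was 13 in copper, 9 in lead, 7 in MPB, 7 in the other 14 chemicals at 25 µM, 18 in all chemicals at 2.5 µM, 7 in all at 0.25 µM, 1 in all at 0.025 µM, 8 in the copper trend, 2 in the lead trend and 2 in copper minus lead. Within section 1 alone the number of members called was 11 in cadmium, 18 in copper, 17 in lead, 10 in MPB, 8 in the other 14 chemicals at 25 µM, 26 in all chemicals at 2.5 µM, 12 in all at 0.25 µM, 8 in all at 0.025 µM, 14 in the copper trend, 8 in the lead trend, 8 in cadmium minus copper, 9 in copper minus lead, 1 in related compounds and 4 in water minus DMSO. Within section 2 alone the number of members called was 4 in copper, 0 in MPB, 2 in the other 14 chemicals at 25 µM, 22 in all chemicals at 2.5 µM, 11 in all at 0.25 µM, 10 in all at 0.025 µM, 1 in the copper trend, 1 in copper minus lead and 1 in related compounds. With the dosed group and its controls alone the number of members called was 7 in lead, 1 in DDE, 0 in MPB, 4 in the other 14 chemicals at 25 µM, 1 in all at 0.25 µM, 1 in the lead trend and 1 in copper minus lead. With no filter on low counts the number of members called was 4 in MPB, 6 in the other 14 chemicals at 25 µM, 12 in all chemicals at 2.5 µM, 7 in all at 0.25 µM, 4 in all at 0.025 µM, 1 in the lead trend, 1 in copper minus lead and 1 in related compounds. Leaving out 1 replicate at a time gave 26 to 27 in arsenic, 20 to 23 in thiram, 4 to 8 in cadmium, 6 to 7 in copper, 0 to 4 in lead, 0 to 4 in DDE, 0 to 3 in MPB, 0 to 1 in the other 14 chemicals at 25 µM, 3 to 12 in all chemicals at 2.5 µM, 1 to 5 in all at 0.25 µM, 0 to 3 in all at 0.025 µM, 21 to 25 in the arsenic trend, 17 to 19 in the thiram trend, 3 to 7 in the cadmium trend, 0 to 3 in the copper trend, 0 in the lead trend, 7 to 13 in arsenic minus cadmium, 3 to 4 in cadmium minus copper, 0 in copper minus lead, 0 in related compounds and 2 to 7 in water minus DMSO. For DDE a term for the position of the number gave 17 and leaving out the end numbers 15. With the replicate block, where the numbers were taken to pair the libraries, the copper trend had 8, the lead trend 3 and copper minus lead 3, and related compounds stayed at 0. In other trends and differences the libraries share only a number, and the block gave 27 in the arsenic trend, 23 in the thiram trend, 6 in the cadmium trend, 12 in arsenic minus cadmium and 6 in cadmium minus copper. No paired analysis was possible because control libraries carry numbers of their own for comparisons against controls. RLE scaling and adding the cadmium library that was set aside moved no count of members by over 1.5 times. With RLE scaling PFKFB4, PFKP, PGK1 and SLC16A1 lost their call in arsenic, ENO1 in cadmium and SLC2A1 in thiram. A section alone has fewer libraries, and where 1 library is left in a group it is assumed to vary like the other groups; for the other changes the cause was not tested. The cadmium comparison at 25 µM rests on 2 libraries of 1434176 and 1454576 counts, and the part of depth in it was not tested.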
